A study of Mus musculus with 2 samples.

Results

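The transcripts described here encode nuclear subunits of respiratory complexes II to V, together with cytochrome c, in mouse hindlimb skeletal muscle. Members were all probe sets whose platform annotation names a single gene symbol of the Sdha to Sdhd, Uqcr, Cox4 to Cox8 or Atp5 type, or the symbol Cyc1 or Cycs. The rule found 70 of 35556 probe sets, which represent 48 of the 19938 genes with a symbol of their own. They comprise 4 genes of complex II, 9 of complex III, 1 of cytochrome c, 17 under the complex IV symbols and 17 of complex V. The set is not complete: no probe set names Cox7c alone, so that complex IV gene is not covered. The samples were male C57BL/6J mice on standard chow that carried a Syn4 transgene for overexpression of syntaxin 4, a plasma membrane SNARE protein of vesicle fusion, and wild-type mice of the same sex, strain and diet. Each genotype was measured on 1 whole-transcript array. The labels give neither the promoter that drives the transgene, nor the age of the mice, nor how many mice stand behind an array.

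The electron transport chain of the inner mitochondrial membrane passes electrons from NADH and succinate to oxygen and pumps protons as it does so. Complex II (succinate dehydrogenase) feeds electrons from the TCA cycle into ubiquinone without pumping, complex III hands them to cytochrome c, complex IV (cytochrome c oxidase) reduces oxygen, and complex V (ATP synthase) makes ATP from the proton gradient. Skeletal muscle is rich in these enzymes, slow oxidative fibres more so than fast glycolytic ones, and several complex IV subunits exist as a muscle isoform and a ubiquitous one.

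Values are log2 intensities after RMA as the authors deposited them, and every difference is Syn4 transgenic minus wild type on that scale. A gene with several probe sets is represented by the brightest. With 1 array per genotype no value has an error, no difference has a replicate check, and none was tested. Differences were counted at any size and at 1.2-fold (0.263 on the log2 scale). The median over all probe sets was 6.06 in both arrays. Stx4a, the mouse syntaxin 4 gene, was at 12.20 in the Syn4 transgenic array and 8.84 in wild type, in the direction of the labels. The tissue label was borne out by its defining genes: the 10 skeletal muscle fibre markers lay between 13.47 and 14.45 in the Syn4 transgenic array and between 13.11 and 14.44 in the wild-type array. For orientation at the dim end, the higher of both values lay at or under 5.47 for 95% of 1027 olfactory receptor genes, and the 3 hepatocyte markers lay between 4.24 and 6.50 in the Syn4 transgenic array, against 4.32 and 6.70 in wild type. Of these 3, Apoa1 was lowest in its difference at -0.20 and Alb highest at 0.67, with 5.83 in Syn4 transgenic and 5.16 in wild-type muscle.

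Nearly all of these respiratory genes read slightly lower in Syn4 transgenic muscle. Of the 48 genes, 45 were below wild type, against 49.6% of all genes. The count was 44 after removal of the trend of the difference on level and 46 after repeated quantile normalization. The median difference was -0.15, a 1.11-fold lower level, where the median of all genes was 0.00. A level lower by at least 1.2-fold was reached by 17 genes, against 11.0% of all genes. None was higher by that much, against 11.3% of all genes, and none was lower by 1.5-fold, against 1.19% of all genes. The 3 genes above wild type were Cycs, Cox7a2l and Cox7b2. Among probe sets, 65 of 70 were below wild type and 5 above. In bulk muscle, fewer cells of a type and less of a transcript per cell cannot be told apart.

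**Figure D1:**
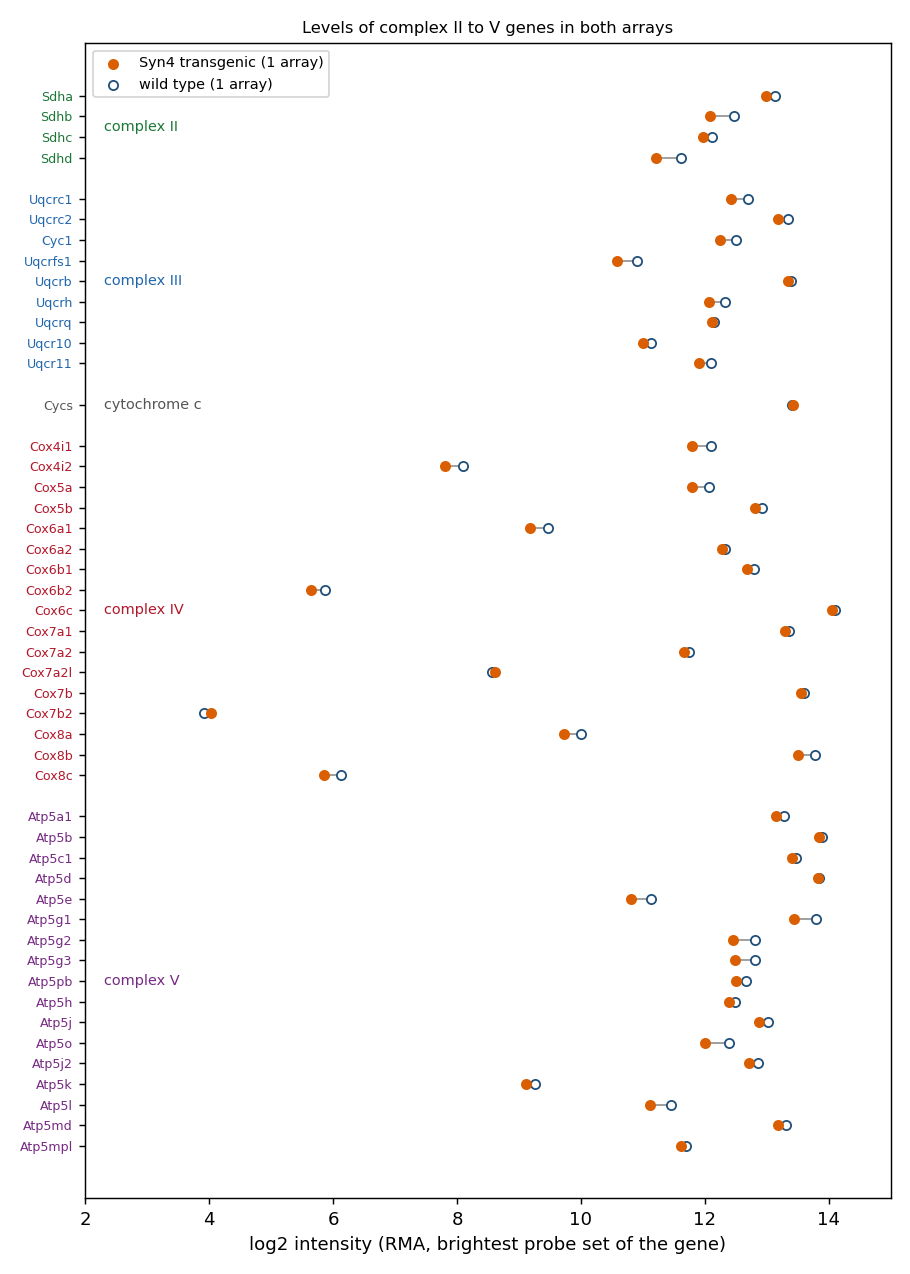
Log2 intensity (horizontal axis) of each of the 48 genes in Syn4 transgenic muscle (filled orange) and wild-type muscle (open blue), by complex, from the brightest probe set and with 1 array per genotype. The orange point lies left of the blue one for 45 genes, and levels of different genes are not comparable because their probes differ.

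These are mostly bright genes. The mean of both arrays was 10 or more for 40 of them, and 39 of those 40 were below wild type, against 50.5% of all 2108 genes that bright. Of the 40, 13 were lower by at least 1.2-fold, against 12.4% of the genes that bright. Among the bright members the brightest differed least: 6 of the 9 members with a mean level from 10 to 12 were lower by at least 1.2-fold and their median was -0.30, whereas 7 of the 31 members at 12 or above were and their median was -0.13. Over all genes the medians in these level classes were 0.00 and -0.04. The size did not follow level further down, since the medians were -0.22 for the 4 members from 8 to 10, -0.29 for the 1 member from 6 to 8 and -0.23 for the 3 members under 6. Whether the range of the arrays limits differences among the brightest probe sets was not tested. At the dim end, Cox7b2 was the 1 member under the olfactory receptor level.

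**Figure D2:**
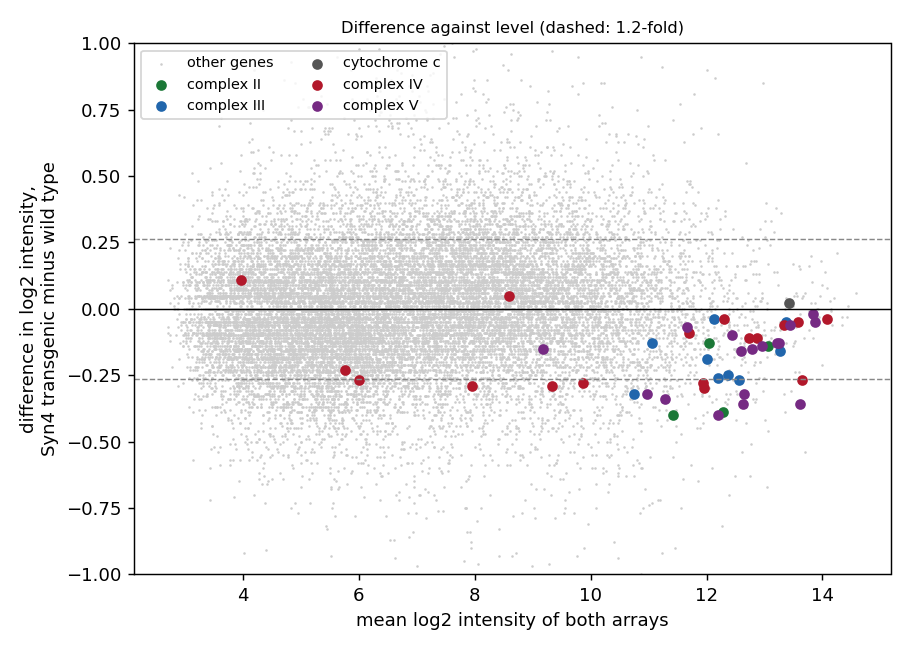
Difference in log2 intensity, Syn4 transgenic minus wild type (vertical axis), against the mean log2 intensity of both arrays (horizontal axis), with members coloured by complex, other genes in grey and 1.2-fold as dashed lines. Of the other genes, 137 differ by more than 1 log2 unit and lie outside the plotted range. The members crowd at the bright end below 0, 31 of them at a mean level of 12 or above.

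Several probe sets measured the same gene in 13 cases, which shows how closely these small differences repeat within the same pair of arrays. The 35 probe sets of these genes differed within a gene by 0.01 to 0.28 log2 units, with a median range of 0.05, and the range was at most 0.1 for 11 of the 13 genes. For all 999 genes with several probe sets the median range was 0.12, and for the 300 of them with a mean level of 10 or more it was 0.07. All 13 share a RefSeq transcript accession between their probe sets in the annotation, and since the probe sets of a gene read the same RNA they are not replicates of a genotype. In 12 of the 13 genes every probe set had the same sign of difference, the exception being Cycs. Atp5l, a membrane subunit of ATP synthase, had the most. Its 6 probe sets were at 11.11, 11.04, 10.88, 11.01, 10.71 and 10.68 in the Syn4 transgenic array, against 11.45, 11.42, 11.27, 11.45, 11.08 and 11.06 in the wild-type array. Each of these 6 was lower in the Syn4 transgenic array, by differences between -0.44 and -0.34. Cox7a2l had the widest range.

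Nuclear respiratory genes are known targets of the transcription factors NRF1, GABP (an ETS factor), ERR and YY1, so the RefSeq promoters of the members were searched for their core letters. Of the 48 genes, 36 had a promoter of 250 bases before to 50 after a transcript start in the RefSeq table of GRCm38.p6. These 36 genes have 39 promoters, and members are counted by gene, whereas the comparison shares below are by promoter. The NRF1 core CGCATGCG, which is its own reverse complement, occurred in 8 of the 36 genes (22.2%), against 1.87% of all 32851 promoters and 2.52% of the 21263 promoters of protein-coding genes. The ETS letters CCGGAAG, on either strand, occurred in 13 (36.1%), against 8.86% of all and 11.6% of coding promoters. ERR letters TNAAGGTCA were found in 2 genes (5.56%), against 1.28% of all and 1.03% of coding promoters. YY1 letters AANATGGCG were found in 3 (8.33%), against 2.38% of all and 3.12% of coding promoters. A match is a description of the sequence and not a binding site. In 6 genes the NRF1 core lies wholly before the start site, and these stretches are shown as a sequence feature that the rule did not use, present in a minority of the members. They are written on the strand of the gene, which is the minus strand in each case, with the core in capitals.
Cycs, GRCm38.p6 chr6:50566614-50566639, core beginning 61 bases before the start: atgctagctCGCATGCGcgcgcacaa
Cox6a1, chr5:115349103-115349128, 161 bases before: ggaacggggCGCATGCGcgctctcgc
Atp5g2, chr15:102671072-102671097, 41 bases before: ctccggccgCGCATGCGcagagcctt
Atp5k, chr5:108434432-108434457, 49 bases before: tcactgcggCGCATGCGcctttctgg
Atp5j, chr16:84835107-84835132, 147 bases before: gccagaataCGCATGCGtacagtgca
Atp5l, chr9:44920967-44920992, 241 bases before: aaccaataaCGCATGCGcatttcccc

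The promoters of Sdhd and Atp5g3, among the members with the larger differences, carry the ETS and the ERR letters in the opposite orientation, again in capitals on the minus strand, which is that of the genes. The ETS stretch is an example, since ETS letters also lie before the start of Atp5h, which differed by only -0.10.
Sdhd, ETS, GRCm38.p6 chr9:50603880-50603904, 46 bases before the start: gtctcctgcCTTCCGGttcacgctt
Atp5g3, ERR, GRCm38.p6 chr2:73911361-73911387, 52 bases before the start: gttacaaagTGACCTTGAgcgtcttcc

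Genes with the NRF1 core spanned nearly the whole range of differences, from -0.36 for Atp5g2 to 0.02 for Cycs. Their median was -0.23, against -0.15 for the other members with a promoter in the table. The 13 genes with the ETS letters ran from -0.40 to -0.10 with a median of -0.26, against -0.14 for the rest. No test was made of these medians. The genes lie on 19 chromosomes, with at most 6 on any one, chromosome 7, which also carries Stx4a. Those 6 ran from -0.27 to -0.04 with a median of -0.14.

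All 4 complex II genes were below wild type, against 49.6% of all genes, with a median of -0.265. That was the lowest median of complexes II to V, except with genes of 1 probe set only. There complex IV was marginally lower, at -0.27 against -0.265 for complex II. Sdhd, a membrane anchor that holds the complex in the inner membrane, was at 11.22 in the Syn4 transgenic array and 11.62 in wild type, 1.32-fold lower. Sdhb, the iron-sulphur subunit that carries electrons towards ubiquinone, was at 12.09 in the Syn4 transgenic array against 12.48 in wild type, 1.31-fold lower. Both passed 1.2-fold. The remaining genes differed less: Sdha, the flavoprotein that oxidises succinate, was at 12.99 in the Syn4 transgenic array and 13.13 in wild type. Sdhc, the other membrane anchor, was at 11.98 in Syn4 transgenic and 12.11 in wild-type muscle. The catalytic pair Sdha and Sdhb and the anchor pair Sdhc and Sdhd thus each held 1 gene near -0.40 and 1 near -0.13, so the split did not follow the subunits' roles.

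All 9 complex III genes were below wild type, against 49.6% of all genes, with a median of -0.19. Of these 9, 2 passed 1.2-fold, against 11.0% of all genes. Uqcrfs1, the Rieske iron-sulphur protein and a catalytic subunit, was at 10.58 in Syn4 transgenic and 10.90 in wild-type muscle, 1.25-fold lower. Cyc1, the haem-bearing cytochrome c1, was at 12.25 in the Syn4 transgenic array against 12.50 in the wild-type array, just short of 1.2-fold. The core proteins, which form the matrix side of the complex, differed by -0.27 for Uqcrc1 (12.43 in Syn4 transgenic, 12.70 in wild type) and by -0.16 for Uqcrc2 (13.19 in Syn4 transgenic, 13.35 in wild type). The small supernumerary subunits spread from close to 0 to just short of 1.2-fold. Uqcrq (12.11 in Syn4 transgenic, 12.15 in wild type) and Uqcrb (13.34 in Syn4 transgenic, 13.39 in wild type) were nearly level, and the 3 probe sets of Uqcrb lay between -0.07 and -0.02. Uqcr10 was at 11.00 in Syn4 transgenic and 11.13 in wild-type muscle, and Uqcr11 at 11.91 in Syn4 transgenic and 12.10 in wild type. Uqcrh, the acidic hinge protein that binds cytochrome c1, differed most of the small subunits, at 12.07 in the Syn4 transgenic array and 12.33 in wild type.

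Cytochrome c itself did not share the lower level. Cycs, which encodes the mobile carrier between complexes III and IV, was at 13.43 in Syn4 transgenic and 13.41 in wild-type muscle. Its other probe sets were at 12.66 and 6.63 in the Syn4 transgenic array, against 12.72 and 6.62 in wild type. All 3 were within 0.06 of equality, and their mean difference was -0.01.

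**Figure D3:**
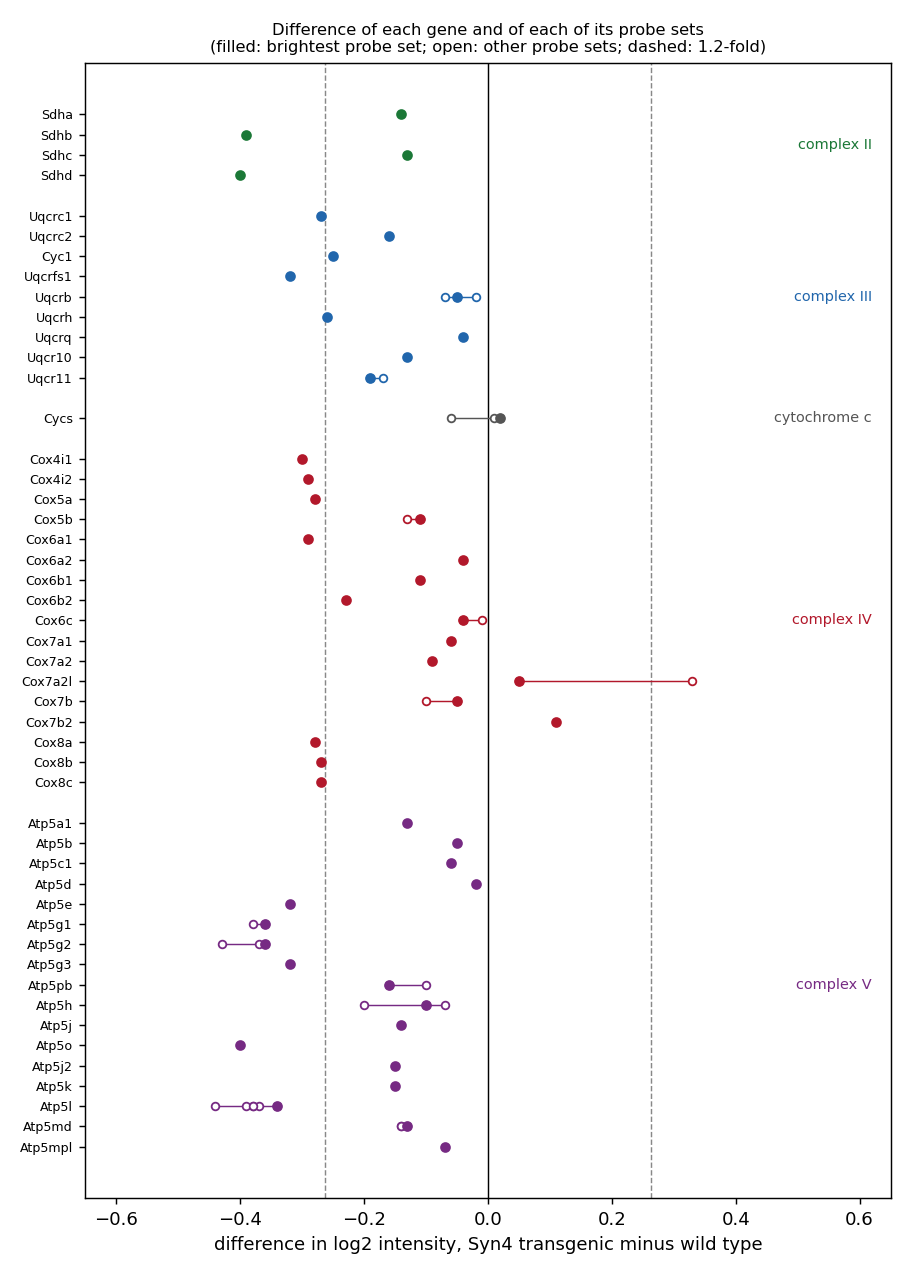
Difference in log2 intensity, Syn4 transgenic minus wild type (horizontal axis), for the 48 genes by complex: filled points are the brightest probe set, open points the other probe sets of the gene, and dashed lines mark 1.2-fold. Points of 1 gene lie close together except for Cox7a2l, and the 17 filled points beyond the left dashed line belong to complexes II, III, IV and V.

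Complex IV was more mixed in sign, with 15 of 17 genes below wild type, against 49.6% of all genes, and a median of -0.11. Lower by at least 1.2-fold were 7 genes, against 11.0% of all genes: Cox4i1, Cox4i2, Cox5a, Cox6a1, Cox8a, Cox8b and Cox8c. The median was -0.27 with genes of 1 probe set only, which leaves out Cox5b, Cox6c, Cox7a2l and Cox7b. Without the lung or testis isoforms and Cox7a2l, all 12 remaining genes were below wild type, with the same median. Cox4i1 and Cox5a, which join the catalytic core early, both passed 1.2-fold. Cox4i1, the ubiquitous isoform of the largest nuclear subunit, was at 11.80 in Syn4 transgenic and 12.10 in wild-type muscle, 1.23-fold lower. Cox5a was at 11.79 in the Syn4 transgenic array and 12.07 in wild type, 1.21-fold lower. Cox5b, a zinc-binding subunit, was at 12.81 in Syn4 transgenic against 12.92 in wild type, with a second probe set at -0.13. The bright Cox6c was at 14.06 in Syn4 transgenic and 14.10 in wild type, and it was the member nearest the top of the scale. Cox6b1, on the intermembrane side, was at 12.68 in Syn4 transgenic and 12.79 in wild type, and Cox7b at 13.55 in Syn4 transgenic and 13.60 in wild type.

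In none of the 3 pairs did the muscle isoform differ more from wild type than its ubiquitous counterpart. Cox6a2, the heart and muscle isoform of subunit VIa, was at 12.28 in Syn4 transgenic and 12.32 in wild-type muscle, whereas ubiquitous Cox6a1 was at 9.18 in Syn4 transgenic and 9.47 in wild type. The muscle isoform's difference was therefore 0.25 above that of the ubiquitous one, the widest gap of the pairs. Cox7a1, the muscle isoform of subunit VIIa, was at 13.30 in Syn4 transgenic and 13.36 in wild type, and ubiquitous Cox7a2 at 11.66 in Syn4 transgenic and 11.75 in wild type, a gap of 0.03. In the third pair both isoforms passed 1.2-fold: Cox8b, the muscle isoform of subunit VIII in the mouse, was at 13.51 in Syn4 transgenic and 13.78 in wild type. Its ubiquitous partner Cox8a was at 9.72 in Syn4 transgenic and 10.00 in wild type, a gap of 0.01. The median difference was -0.06 over the 3 muscle isoforms and -0.20 over the 6 ubiquitous isoforms, of which all were below wild type. These medians are not over matched subunits, since Cox4i1, Cox6b1 and Cox7b belong to none of the 3 pairs. The muscle isoforms also read brighter, with a mean of 13.15 in wild type against 11.62, and the brightest members differed least. Whether brightness has a part in these medians was not tested. Each gap compares differences and not levels, since the probe sets are not on a common scale.

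Of the 4 isoforms best known from lung or testis, 1 lay above 6.79, the median over all genes of the higher of both values. Cox4i2, the isoform of Cox4 known from lung, was at 7.80 in Syn4 transgenic and 8.09 in wild-type muscle, 1.22-fold lower, and was the one above that median. The testis isoforms Cox6b2 (5.64 in Syn4 transgenic, 5.87 in wild type) and Cox8c (5.86 in Syn4 transgenic, 6.13 in wild type) lay a little over the olfactory receptor level. Cox7b2, another testis isoform, was under it at 4.02 in Syn4 transgenic and 3.91 in wild type, so its sign says nothing about expression. RMA gives no detection call, so whether these testis isoforms are expressed in muscle cannot be read from the values. Cox7a2l, which is not a subunit of complex IV as such but a factor that joins complexes III and IV into supercomplexes, was above wild type on both probe sets, which differed from each other more than those of any other member. Its brightest probe set was at 8.61 in Syn4 transgenic and 8.56 in wild-type muscle. The other was at 8.10 in Syn4 transgenic and 7.77 in wild type, so the differences of 0.05 and 0.33 have the same sign but not the same size. On the brightest probe set its sign turned to -0.01 after repeated quantile normalization.

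All 17 complex V genes were below wild type, against 49.6% of all genes, with a median of -0.15. Of these 17, 6 passed 1.2-fold, against 11.0% of all genes. The differences were uneven within the enzyme, and most of the catalytic F1 head was nearly level. Atp5b, the beta subunit that carries the catalytic sites, was at 13.84 in Syn4 transgenic and 13.89 in wild-type muscle. Atp5c1, the gamma subunit of the rotating shaft, was at 13.41 in Syn4 transgenic and 13.47 in wild type, and Atp5d, the delta subunit, at 13.83 in Syn4 transgenic and 13.85 in wild type. After removal of the level trend the difference of Atp5d was 0.00. Atp5a1, the alpha subunit, was at 13.15 in Syn4 transgenic and 13.28 in wild type. The exception in F1 was the small epsilon subunit Atp5e, at 10.81 in Syn4 transgenic against 11.13 in wild type, 1.25-fold lower.

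The c ring, the proton-driven rotor in the membrane, was lower throughout. Its subunit is encoded by 3 genes that differ in their import sequences and give the same mature protein. Atp5g1 was at 13.44 in the Syn4 transgenic array and 13.80 in wild type, 1.28-fold lower, with a second probe set at -0.38. Atp5g2 was at 12.45 in Syn4 transgenic and 12.81 in wild type, also 1.28-fold lower, and its other probe sets differed by -0.37 and -0.43. Atp5g3 was at 12.49 in Syn4 transgenic and 12.81 in wild type, 1.25-fold lower. All 3 genes passed 1.2-fold, and 11.0% of all genes were lower by that much. Their median was -0.36, against -0.06 for the 5 F1 genes. Whether brightness has a part in this contrast was not tested. The genes are similar in their coding parts, and how far their probes cross-hybridise was not tested.

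In the peripheral stalk, which keeps the head from turning, 1 of 4 genes stood out. Atp5o, the OSCP subunit that caps the head, was at 12.00 in Syn4 transgenic and 12.40 in wild-type muscle, 1.32-fold lower. Atp5pb (12.51 in Syn4 transgenic, 12.67 in wild type), Atp5j (12.88 in Syn4 transgenic, 13.02 in wild type) and Atp5h (12.39 in Syn4 transgenic, 12.49 in wild type) differed by -0.16 to -0.10. Among the 5 membrane subunits, Atp5l passed 1.2-fold on each of its 6 probe sets. Atp5j2 was at 12.71 in Syn4 transgenic and 12.86 in wild type, and Atp5k, a subunit at the interface of ATP synthase dimers, at 9.11 in Syn4 transgenic and 9.26 in wild type. The small associated proteins Atp5md (13.19 in Syn4 transgenic, 13.32 in wild type) and Atp5mpl (11.62 in Syn4 transgenic, 11.69 in wild type) completed the group, and the 3 probe sets of Atp5md agreed to 0.01.

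Factors that build complexes II to V were mostly below wild type as well. Of 36 measured assembly factors, 29 were below wild type, against 49.6% of all genes, and 13 by at least 1.2-fold, against 11.0% of all genes, with a median of -0.19. Lyrm7, which guides the Rieske protein into complex III, differed most, at 6.91 in Syn4 transgenic and 7.51 in wild-type muscle, 1.52-fold lower. Its partner Bcs1l was at 9.41 in Syn4 transgenic and 9.79 in wild type, next to Uqcc3 at -0.31. Among complex IV factors, Cox10, which makes its haem precursor, was at 9.35 in Syn4 transgenic and 9.77 in wild type, and Taco1, a translational activator of a mitochondrially encoded subunit, at 9.62 in Syn4 transgenic and 10.03 in wild type. Cmc2 (-0.33) also passed 1.2-fold. Hccs, which attaches haem to cytochromes c and c1, differed by -0.39. The ATP synthase factors Fmc1 (-0.42, a role first known from yeast), Tmem70 (-0.38) and Atpaf2 (-0.32) and the complex II factors Sdhaf2 (-0.32), Sdhaf3 (-0.31) and Sdhaf4 (-0.28) complete the 13. Surf1, a complex IV factor, was highest at 0.22.

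Partners of ATP synthase and the single mitochondrially encoded transcript measured gave further context. Besides Atp5md and Atp5mpl, the ATPase inhibitor gene Atpif1 was at 11.07 in Syn4 transgenic and 11.17 in wild-type muscle. The phosphate carrier gene Slc25a3 differed by -0.24 and the ADP/ATP carrier genes Slc25a4 and Slc25a5 by -0.11 and -0.23, so none of these 4 passed 1.2-fold. COX2, the annotation's name for the mitochondrially encoded subunit 2 of complex IV, was at 13.87 in Syn4 transgenic and 13.77 in wild type, opposite in sign to most nuclear subunits. It was the 1 measured member of the 6 on that list.

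Regulators of respiratory genes differed less uniformly. Of 16, 11 were below wild type, against 49.6% of all genes, and 3 by at least 1.2-fold, against 11.0% of all genes, with a median of -0.07. A count of 3 among so few genes is not far from that share. The coactivator gene Ppargc1a was at 10.48 in Syn4 transgenic and 10.53 in wild-type muscle. The nuclear receptor genes Esrrb (-0.50), Ppara (-0.39) and Esrrg (-0.31) passed 1.2-fold, and Esrra differed by -0.22. Of the factors whose letters were searched for in the promoters, Nrf1 differed by -0.17, Gabpa by 0.07 and Yy1, the highest of the list, by 0.21.

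Other groups of mitochondrial genes were lower as well. The complex I list was made by Nduf subunit symbols. It also holds Ndufa4 and Ndufa4l2, whose membership of complex I the symbol does not settle. All 35 genes on it were below wild type, against 49.6% of all genes, and 13 by at least 1.2-fold, against 11.0%. Their median was -0.22, with a range from -0.57 for Ndufs6 to -0.04 for Ndufa13. Of 77 mitochondrial ribosomal protein genes, 69 were below wild type, against 49.6% of all genes, and 32 by at least 1.2-fold, against 11.0%. Their median was -0.24, with a range from -0.66 for Mrpl14 to 0.15 for Mrps16. The difference between these groups and complexes II to V was not tested.

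**Figure D4:**
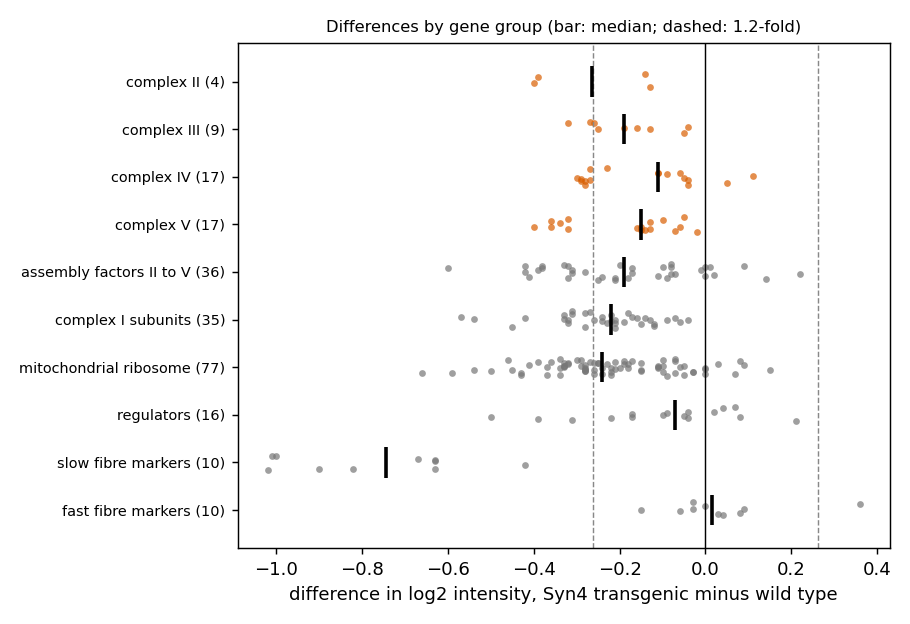
Difference in log2 intensity, Syn4 transgenic minus wild type (horizontal axis), of each gene in 10 groups, with the number of genes in parentheses, the median as a black bar and 1.2-fold as dashed lines; complexes II to V are orange. Medians lie between -0.27 and -0.11 for complexes II to V, at -0.75 for slow fibre markers and at 0.02 for fast fibre markers. The group labelled complex I subunits was made by Nduf symbols and also holds Ndufa4 and Ndufa4l2.

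Of the marker lists for fibre types and other cells, that of slow fibres was lower as a whole. All 10 slow fibre markers were lower by at least 1.2-fold, against 11.0% of all genes, and 9 of them by 1.5-fold, against 1.19%. Their median was -0.75, with a mean level of 11.65 in Syn4 transgenic and 12.42 in wild-type muscle. They ran from Myl3 at -1.02 to Myoz2 at -0.42. The 10 fast fibre markers had a median of 0.02, with a mean level of 13.90 in Syn4 transgenic and 13.87 in wild type, and ran from Myh2 at -0.15 to Myh1 at 0.36. White adipocyte markers went the other way: all 7 measured were higher by at least 1.2-fold, against 11.3% of all genes. Their median was 1.62, with a mean level of 8.78 in Syn4 transgenic and 7.18 in wild type. They ran from Pnpla3 at 0.46 to Lep at 3.20, which was at 9.06 in Syn4 transgenic and 5.86 in wild type. The 5 fibroblast markers were all higher too, with a median of 0.23, from Dcn at 0.14 to Lum at 0.74. Of all 19938 genes, 9358 were above wild type. Only 2 of the 5 fibroblast markers passed 1.2-fold, against 11.3% of all genes. The 5 endothelial markers had a median of 0.02 and ran from Kdr at -0.44 to Vwf at 0.32. All 5 brown adipocyte markers were below wild type, against 49.6% of all genes, with a median of -0.19. Their mean level was 5.56 in Syn4 transgenic and 5.88 in wild type. They ran from Zic1 at -1.04 (6.02 in Syn4 transgenic, 7.06 in wild type) to Dio2 at -0.04, and the defining gene Ucp1 was under the olfactory receptor level, at 5.04 in Syn4 transgenic and 5.23 in wild type. Of the 5 cardiac markers, 4 were below wild type, against 49.6% of all genes, with a median of -0.16. They ran from Myh6 at -0.67 (7.42 in Syn4 transgenic, 8.09 in wild type) to Nppa at 0.25. Their mean level was 6.03 in Syn4 transgenic and 6.19 in wild type. Ryr2 (5.27 in Syn4 transgenic, 5.28 in wild type) was under the olfactory receptor level. The part of fibre type, of adipocytes or of fibroblasts in the lower respiratory transcripts was not tested.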

How the data were processed

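RNA of hindlimb skeletal muscle was hybridised to 1 whole-transcript array per genotype. The authors deposited log2 intensities of 35556 probe sets, made with RMA in Partek per the submitters' processing notes; those notes give no version and do not list the steps. RMA tends to compress ratios. The platform annotation gave 1 gene symbol to 21789 probe sets, several to 1621 and none to 12146. A further 3 probe sets matched the member rule but carry 2 symbols and were left out. All 48 member symbols matched a RefSeq gene table (GRCm38.p6) by Entrez identifier.

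The brightest probe set stood for a gene, no filter on dim genes was applied, and the difference is Syn4 transgenic minus wild type. With 1 array per genotype no test was possible, so members are described beside all genes. Every member gene is named by rule. So are listed assembly factors, partners and regulators past 1.2-fold and the ends of each list, while marker and comparison lists are given mainly by counts, medians, levels and ends. Ucp1, Elovl3, Ryr2, Atpif1, Slc25a4, Slc25a5, Ppargc1a, Esrra, Nrf1 and Gabpa were picked with their values in view. The members, lists and the 1.2-fold size were chosen with earlier results of these data known. The alternatives were averaged or single probe sets, median centring, a loess trend taken out (span 0.3), repeated quantile normalization, a filter on dim genes at 6.79, subunits only, means and 1.5-fold. Counting was tested on simulated data. Python 3.11.15, pandas 2.3.3 and statsmodels 0.14.6 were used. The number of arrays limits the precision.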

Additional observations from a re-analysis of the deposited data

How the results depend on the processing

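The median difference over the member genes stayed between -0.16 and -0.14 under all alternatives tried, and the mean over the member genes was -0.18. Of 74 values under an alternative (overall counts, medians per complex and isoform gaps), 72 stayed within 0.1 log2 units, or within 1.5 times for counts. The exceptions were the count lower by at least 1.2-fold, which is 0 at 1.5-fold, and the complex IV median, which is -0.27 with genes of 1 probe set only, an alternative that removes Cox5b, Cox6c, Cox7a2l and Cox7b. Part of the 74 could not move. Both arrays had the same median, so median centring changed nothing, and averaging leaves genes of 1 probe set as they are. The limit of 0.1 is also wider than the isoform gaps of Cox7a1 and Cox7a2 (0.03) and of Cox8b and Cox8a (0.01). The former was 0.105 after repeated quantile normalization and still counted as within the limit. For single genes, no difference past 1.2-fold changed sign under averaging, median centring, loess or quantile scaling. Cox7a2l was at 0.19 with averaged probe sets, and the signs of Atp5d (loess), Cycs (averaging) and Cox7a2l (quantile) changed near 0. No paired analysis was possible because each genotype has 1 array. No spread between mice can be estimated, so no difference here is known to exceed it.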
